A study of Mus musculus with 6 samples.

Results

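The potassium channel genes of mouse pancreatic islets were followed here, in mice with and without a deletion of the transcription factor gene Klf4 in alpha cells. The members were all genes of the count table whose symbol was Kcn, then letters, then a number, together with Abcc8 and Abcc9, which encode the regulatory subunits of the ATP-sensitive potassium (K-ATP) channel. This rule uses names only and gave 94 of the 55536 genes in the table. Whole islets of C57B1/6J mice were taken for sequencing of polyadenylated RNA, with 3 libraries of genotype Klf4+/+;Gcg-iCre (control) and 3 of genotype Klf4fl/fl;Gcg-iCre (knockout). Both genotypes carried Gcg-iCre, a Cre recombinase driven by the glucagon gene, so that floxed Klf4 is removed in alpha cells, and the RNA of these cells was measured together with that of beta, delta and non-endocrine cells. The labels give neither the age nor the sex of the mice, and do not say that each library came from a separate animal, so the p-values measure the spread between these libraries.

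Potassium channels let potassium ions leave the cell and so hold the membrane near its resting voltage or bring it back there after an action potential. In beta cells the K-ATP channel, built from 1 kind of inward rectifier pore and 1 kind of sulfonylurea receptor, closes when glucose metabolism raises ATP. The membrane then depolarizes, voltage-gated calcium channels open and insulin is released. Voltage-gated and calcium-activated potassium channels end each action potential, 2-pore channels carry a background current, and alpha and delta cells use channels of the same families to time the release of glucagon and somatostatin.

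Libraries held 101277200 to 110243918 counts. Klf4 itself was counted at 3148, 2879 and 2015 in the controls (replicates 1 to 3, here and below) and at 2340, 2540 and 2277 in the knockouts. These are normalized counts, that is, counts divided by the library's DESeq2 size factor. The groups overlapped, with -0.17 ± 0.15 (SE) as the log2 fold change of knockout against control and a DESeq2 adjusted p of 0.774. Without control replicate 3 the change was -0.34 and passed (adjusted p = 0.00568), and without control replicate 1 it was -0.038. The gene's total count in whole islets thus did not separate the genotypes with all 6 libraries. Xist, expressed from the inactive X chromosome of females, lay between 77938 and 108105 normalized counts in the controls and between 12.4 and 30.2 in the knockouts, and the Y-linked gene Ddx3y was at 0 in each control and between 5599 and 6265 in the knockouts. Sex and genotype thus divide the 6 libraries in the same way and cannot be told apart in any difference given here.

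A single potassium channel gene passed the test between the genotypes, and the changes of the others did not pass. Of the 94 genes, 8 had 0 counts in all libraries, 3 had fewer than 10 counts in total, and 83 entered the fit over all genes. An adjusted p-value was given to 76 of these. Kcnip3 alone passed an adjusted p of 0.05 in DESeq2, and it rose. That is 1 of 76 genes, beside 389 of 17797 genes in the whole table, a background of 2.19%. For higher genes the background was 1.53% and for lower genes 0.657%. At an unadjusted p under 0.05 there were 12 of 83, 7 higher and 5 lower, against a background of 9.03%. Among the 69 genes with a mean of at least 50 normalized counts, 33 had a log2 fold change above 0 and 36 one below 0, with a median of -0.03; over all 15811 genes of that abundance the median was -0.01. The median size of the change, without its sign, was 0.14 for the potassium channel genes and 0.10 for all genes, and 47 of the 69 (68.1%) lay within 0.25 of 0, against 81.7% of all genes. In 10 of the 69 genes the control and knockout values did not overlap, against a background of 18.0% of all genes at that abundance. Of these, 7 were higher in the knockouts (Abcc8, Kcnk3, Kcnb2, Kcnn3, Kcnt2 and Kcnip3 among them; background 9.42%) and 3 lower (Kcnd3, Kcnmb4 and Kcnip4; background 8.54%). Beside the genes named by a rule, some are named below because their values had been seen or to fill in a family: Kcnb2, Kcnf1, Kcng3, Kcnip2, Kcnip4, Kcnd1, Kcnd2, Kcnma1, Kcnu1, Kcnj3, Kcnj6, Kcnk5, Kcnj5, Kcnj14, Kcnq1, Kcnh7, Kcnj13, the Kcna and Kcnab genes, and those with no or few counts.

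**Figure D1:**
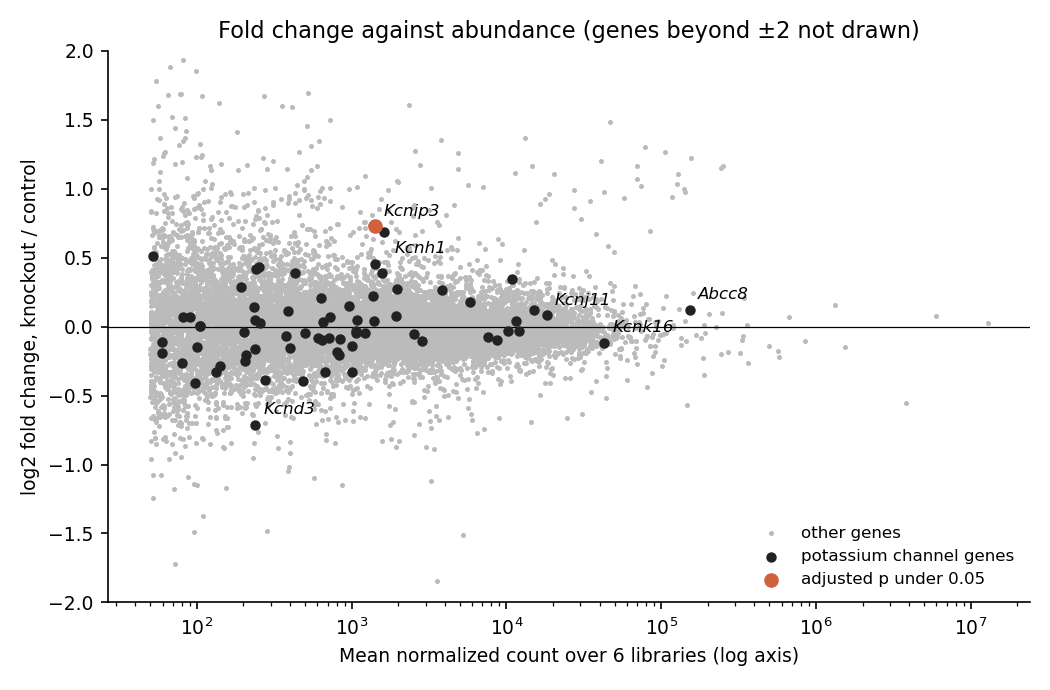
Log2 fold change of knockout against control (vertical axis) against the mean normalized count over 6 libraries (horizontal axis, log scale) for genes with a mean of at least 50; grey points are other genes, black points the 69 potassium channel genes and the orange point Kcnip3, with genes beyond 2 in either direction not drawn. Kcnip3 at 0.73 is the only one past the threshold, and Kcnh1 lies beside it at 0.68 without passing.

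The levels of different genes were compared as TPM, the counts per kilobase of annotated exon scaled to a sum of 1000000 in each library. A TPM is a share of the library and does not measure channel protein. Together the 94 genes held 1505 TPM, and 3 genes made up 64.3% of it, 12 genes 87.3%. At 1 TPM or more were 56 genes, at 10 TPM or more 16. Abcc8 (437.5 TPM on average over 6 libraries), encoding the sulfonylurea receptor SUR1, and Kcnk16 (415.5 TPM), encoding the 2-pore channel TALK-1, came first, and their ranges over the libraries overlapped. Kcnj11, the pore of the K-ATP channel, followed at 114 TPM, below Kcnk16 in each library. Next stood Kcnmb2, an auxiliary subunit of the large-conductance calcium-activated channel, at 75.5 TPM, and then Kcnh2 and Kcnh6, pores of the ERG family of voltage-gated channels, at 57.8 and 56.3 TPM with overlapping ranges.

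From rank 7 to rank 12 the order is not firm, since each gene overlapped its neighbour. They included the 2-pore channel Kcnk1 (29.4 TPM), the small-conductance calcium-activated pore Kcnn3 (24.02), the acid-sensitive 2-pore channel Kcnk3 (22.3) and the Kv4 auxiliary subunit Kcnip1 (21.7). With the longest annotated transcript as the length, all 12 genes kept a place among the first 12. Without correction for length 11 of them did, and Kcnk1 fell to rank 13.

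**Figure D2:**
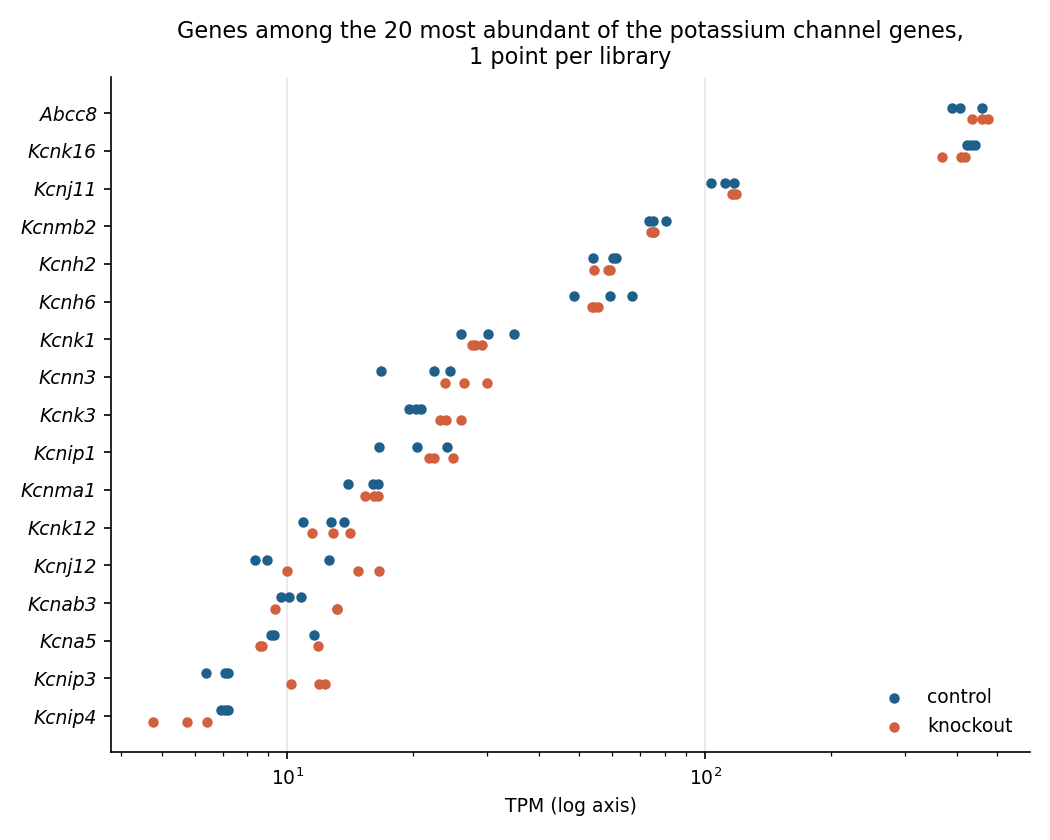
TPM (horizontal axis, log scale) of genes among the 20 most abundant potassium channel genes, 1 point per library, 3 control (blue) and 3 knockout (orange). Abcc8 and Kcnk16 lie near 400 TPM, Kcnj11 near 114, and the points of the 2 genotypes overlap for most genes but lie apart for Kcnk16, Kcnk3, Kcnip3 and Kcnip4.

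By family, the 14 2-pore genes held 32.2% of the summed level, the 2 K-ATP regulatory subunits 29.4%, the 40 voltage-gated pores 16.6%, the 15 inward rectifier pores 9.27%, the 15 auxiliary subunits 9.04% and the 8 calcium- or sodium-activated pores 3.44%. The share of the leading gene differed between the families. Kcnk16 was 85.7% of the 2-pore sum, Abcc8 98.8% of the regulatory subunits and Kcnj11 81.6% of the inward rectifiers. Kcnmb2 was 55.6% of the auxiliary subunits and Kcnn3 46.5% of the calcium- or sodium-activated pores, and the largest of the voltage-gated pores, Kcnh2, was 23.2% of its family. The order of the first 2 depends on the length used: with the longest transcript the 2-pore genes summed to 424 TPM and the regulatory subunits to 579.8. The ranges of the sums overlapped between the genotypes in each family. The voltage-gated sum ran from 238 to 273 TPM in controls and from 246 to 254 in knockouts, and the 2-pore sum from 487 to 514 and from 439 to 491.

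**Figure D3:**
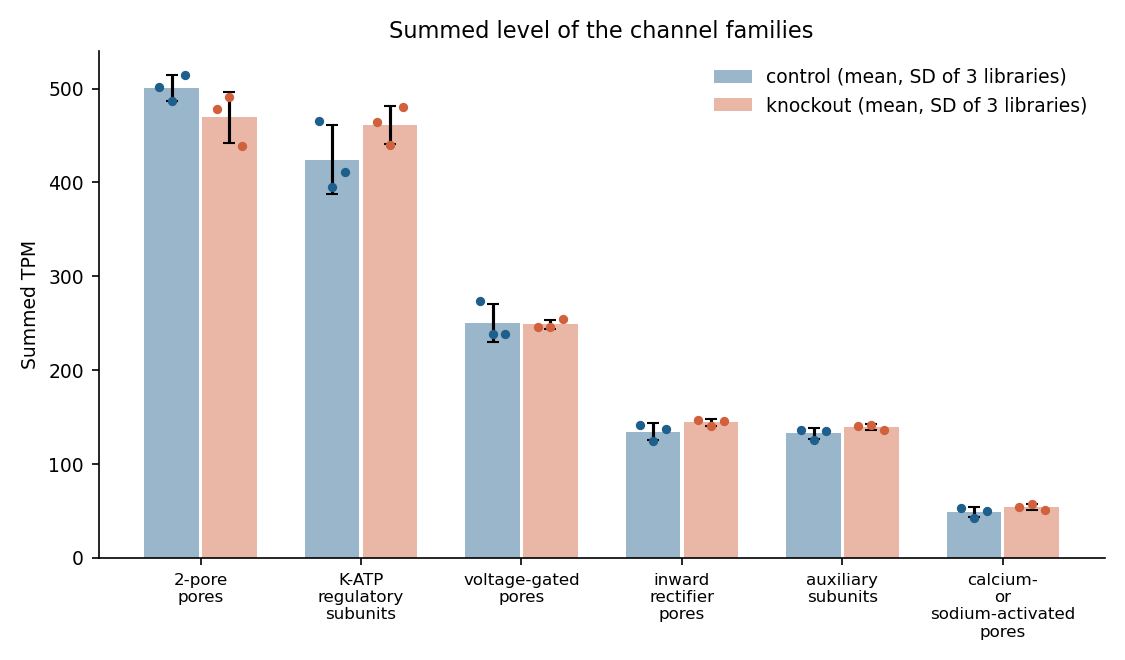
Summed TPM (vertical axis, from 0) of the 6 channel families; bars are means, error bars SDs and points the 3 libraries of control (blue) and knockout (orange). The ranges of the 2 genotypes overlap in each family.

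Neither subunit of the beta-cell K-ATP channel passed, and their intervals were among the narrowest. Abcc8 (ENSMUSG00000040136, chromosome 7, 46104523 to 46180033, minus strand, GRCm38) had 152492, 142064 and 145920 normalized counts in the controls and 159997, 156427 and 163128 in the knockouts. Each knockout library lay above each control, but the log2 fold change of 0.12 ± 0.06 did not pass in DESeq2 (adjusted p = 0.422). As TPM the groups overlapped, at 391 to 460 and 434 to 475.3. The 95% interval, not corrected for the number of genes, ran from 0.11% to 18.4% higher. Kcnj11 (ENSMUSG00000096146, 46093953 to 46100764, minus strand) lies 3758 bases from it on the same chromosome. It had 17663, 17063 and 18195 normalized counts in the controls and 18811, 19093 and 18109 in the knockouts, overlapping groups with a log2 fold change of 0.08 ± 0.06 (DESeq2 adjusted p = 0.729) and an interval from -3.01% to 15.5%. Per exon length, Abcc8 stood 3.65 to 3.92 times above Kcnj11 in controls and 3.72 to 4.09 times in knockouts. With the longest transcript as the length the ratio was 5.17 to 5.80 over the 6 libraries, so its size depends on the length chosen.

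The vascular K-ATP pair, Kcnj8 for the pore and Abcc9 for the receptor SUR2, is known from pericytes and smooth muscle and also lies side by side, on chromosome 6 with 16247 bases between the genes. Abcc9 stood at 5.31 TPM and Kcnj8 at 2.15 TPM. Kcnj8 had 258, 236 and 259 normalized counts in the controls and 206, 237 and 230 in the knockouts, a log2 fold change of -0.16 ± 0.18 (DESeq2 adjusted p = 0.844). Abcc9 had 2080, 1761 and 1780 in the controls and 1971, 2196 and 1769 in the knockouts, a log2 fold change of 0.08 ± 0.12 (adjusted p = 0.907). Both genes had overlapping groups. Of 10 mesenchymal and pericyte markers, 5 were called in DESeq2, all higher (Col1a1, Col1a2, Col3a1, Dcn and Pdgfra), against a background of 1.53% for higher genes. The other 5, Rgs5 and Des among them at log2 fold changes of -0.07 and -0.16, were not called. The sum over all 10 was 325 to 350 TPM in controls and 430 to 447 in knockouts, and it does not give the level of pericytes alone. The part of these cells in the levels of Kcnj8 and Abcc9 was not tested, and in whole-islet RNA fewer cells of a type cannot be told from less RNA per cell.

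Of the other inward rectifiers, Kcnj12, encoding a strong rectifier, had the largest positive change among those with a mean of at least 50. Controls held 942, 1106 and 1536 normalized counts and knockouts 1750, 1219 and 1933, so that control replicate 3 lay above knockout replicate 2. The log2 fold change was 0.45 ± 0.19 (DESeq2 adjusted p = 0.281), and 0.67 without control replicate 3, where it passed (adjusted p = 0.0105). It was 0.31 without control replicate 1. Kcnj10, a channel known from glial cells, had 260, 315 and 361 normalized counts in the controls and 238, 264 and 214 in the knockouts (log2 fold change -0.39 ± 0.20, adjusted p = 0.432). The 7 Schwann cell markers summed to 32.2 to 41.1 TPM in controls and 31.2 to 35.6 in knockouts, with 0 of the 7 called (background 2.19%). Kcnj3 and Kcnj6, subunits of the channels that G proteins open below somatostatin and adrenergic receptors, had log2 fold changes of 0.07 ± 0.13 and -0.04 ± 0.13 and overlapping groups.

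The 2-pore family had 0 called genes among 10 with an adjusted p (background 2.19%). Kcnk16 (ENSMUSG00000023387, chromosome 14, 20261376 to 20269199, minus strand), which sets part of the beta-cell resting current, had 42126, 45217 and 46565 normalized counts in the controls and 41880, 44211 and 37294 in the knockouts. The groups overlapped, with a log2 fold change of -0.12 ± 0.08 (DESeq2 adjusted p = 0.674) and an interval from -17.8% to 3.25%. Without knockout replicate 3 the change was -0.05. As TPM, which scales each library differently, they did not, at 423 to 442 in the controls and 370 to 418 in the knockouts. Kcnk3, the TASK-1 channel described in alpha cells, had 3184, 3728 and 3592 normalized counts in the controls and 4115, 4614 and 3911 in the knockouts. Its knockout libraries all lay above the controls, with a log2 fold change of 0.27 ± 0.10 that did not pass (DESeq2 adjusted p = 0.152). The antisense gene Gm9899, which shares exon bases with it, held 5.63% of its count. Alpha-cell markers lay the other way: 4 of 9 were called, all lower (Gcg, Irx2 and Ttr among them), against a background of 0.657%. In edgeR 0 of them were called (background 0.115%). Their sum was 62151 to 88150 TPM in controls and 47023 to 56123 in knockouts, and the part of alpha cells in the level of Kcnk3 was not tested. Kcnk1 (-0.10 ± 0.11) had overlapping groups, and Kcnk13 (-0.33 ± 0.34) was widely spread, with 127, 223 and 93.4 normalized counts in the controls and 94.4, 137 and 122 in the knockouts.

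Among the 40 voltage-gated pores, 32 had an adjusted p and 0 passed (background 2.19%). Kcnb2, a delayed rectifier, had 1848, 1724 and 1767 normalized counts in the controls and 2288, 2020 and 2133 in the knockouts, with each knockout above each control. Its log2 fold change of 0.27 ± 0.09 gave a DESeq2 adjusted p of 0.0907. Kcnb2 passed when the threshold was set at 0.1, where 3 of 73 potassium channel genes passed against a background of 3.55%.

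The ERG pores Kcnh2 and Kcnh6, whose current helps to repolarize the cell, did not pass with all 6 libraries. Kcnh2 had 11929, 11753 and 13121 normalized counts in the controls and 12338, 11666 and 12052 in the knockouts, an interval from -11.3% to 8.25%. Kcnh6 had 9705, 9452 and 7660 in the controls and 8490, 8464 and 8149 in the knockouts, with control replicate 3 the lowest of the 6 libraries and an interval from -18.1% to 6.95%. The log2 fold change of Kcnh6 was -0.10 ± 0.10, and -0.19 without control replicate 3, where it passed in DESeq2 (adjusted p = 0.0137). It was -0.03 without control replicate 1 and -0.05 without control replicate 2. Kcnc4, a fast voltage-gated pore, had 522, 462 and 661 in the controls and 364, 515 and 373 in the knockouts (log2 fold change -0.39 ± 0.19, DESeq2 adjusted p = 0.406). The change was -0.24 without control replicate 3 and -0.57 without knockout replicate 2.

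Kcnh1, the ether-à-go-go channel, had the largest positive change of the voltage-gated genes with a mean of at least 50, and whether it passed depended on 1 library and on the model. Control replicates 1 and 2 held 912 and 968 normalized counts, control replicate 3 held 1833, and knockout replicates 1 to 3 held 1746, 1784 and 2429. Control replicate 3 thus lay among the knockouts. The log2 fold change was 0.68 ± 0.36 (DESeq2 adjusted p = 0.471) with all libraries and 1.08 without control replicate 3 (adjusted p = 2.73e-09); it was 0.74 with the replicate number as a block (adjusted p = 1.52e-05). Over 13 alternatives, the block not among them, the adjusted p ran from 2.73e-09 to 0.897. Kcnf1, a silent subunit that forms no channel alone, had widely spread controls, with 452, 267 and 1211 normalized counts beside 523, 809 and 649 in the knockouts.

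**Figure D4:**
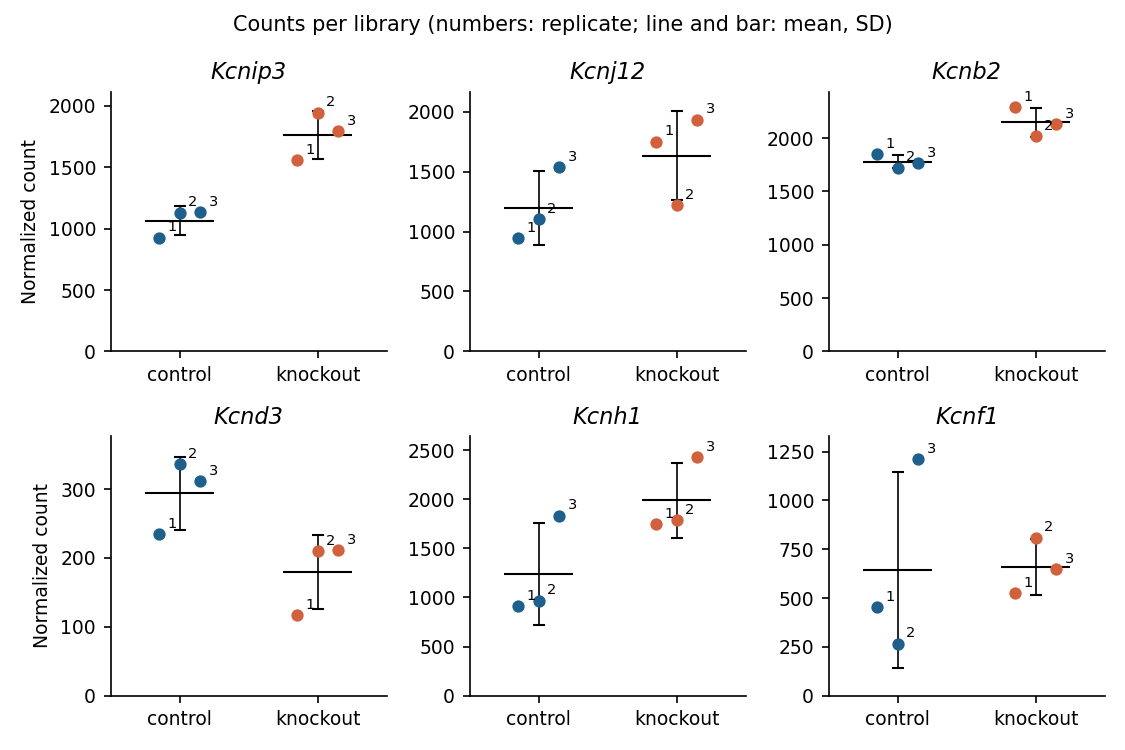
Normalized counts (vertical axes, from 0) of Kcnip3, Kcnj12, Kcnb2, Kcnd3, Kcnh1 and Kcnf1 in each library, numbered by replicate, with group means as lines and SDs as bars. Kcnip3, Kcnb2 and Kcnd3 have groups that do not overlap, whereas control replicate 3 lies at 1833 for Kcnh1 and at 1211 for Kcnf1, far above the other controls.

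The calcium- and sodium-activated pores had 0 called genes of 8 (background 2.19%). Kcnma1, the large-conductance (BK) channel, had 11151, 10688 and 12416 normalized counts in the controls and 12062, 12150 and 11017 in the knockouts, with a log2 fold change of 0.04 ± 0.08. Kcnn3 was higher in each knockout library, at 11949, 13977 and 10566, than in the controls, at 10508, 7893 and 10395, but the highest control and the lowest knockout were nearly equal. Its log2 fold change was 0.34 ± 0.13 (DESeq2 adjusted p = 0.167), and 0.22 without control replicate 2. Kcnt2, a sodium-activated pore at 0.17 TPM, had 49.6, 32.6 and 46.7 normalized counts in the controls and 68.0, 59.8 and 55.9 in the knockouts (0.51 ± 0.38, adjusted p = 0.699). Kcnu1, best known as a sperm channel, was found in all 6 libraries at 704 to 973 normalized counts, a mean of 5.13 TPM.

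Kcnip3 was the gene that passed in DESeq2, with higher counts in the knockouts. It encodes KChIP3, also called calsenilin or DREAM, a calcium-binding protein that attaches to Kv4 channels and also acts as a transcriptional repressor. Kcnip3 (ENSMUSG00000079056, chromosome 2, 127456498 to 127522094, minus strand) shares no exon bases with another annotated gene. Its normalized counts were 927, 1130 and 1137 in the controls and 1559, 1946 and 1793 in the knockouts, so that the lowest knockout lay well above the highest control. The means were 1065 ± 119 and 1766 ± 195 (SD, n = 3 each). The log2 fold change of 0.73 ± 0.13, a factor of 1.66 with an interval from 39.7% to 96.9% higher, had a DESeq2 adjusted p of 3.59e-06 (9.49e-08 under the replicate block, and 2.81e-06 to 0.0879 over 13 other alternatives). Its level was 6.38, 7.09 and 7.23 TPM in the controls and 10.2, 12.3 and 11.9 TPM in the knockouts, and by its mean it was the 18th most abundant potassium channel gene. The edgeR quasi-likelihood test gave an adjusted p of 0.0879, which ended the call. In that test 0 of 83 potassium channel genes passed (background 0.115%), while 9 of the 83 had an unadjusted p under 0.05 (background 9.48%). Each fit that left out 1 library kept Kcnip3 past the threshold in DESeq2, with log2 fold changes from 0.64 to 0.81.

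Markers of other cell types differed between the same libraries. The 8 acinar markers summed to 6630 to 12651 TPM in controls and 16734 to 22578 in knockouts, with a median log2 fold change of 1.05 and 1 of the 8 called (Ptf1a, higher). The 6 duct markers summed to 114 to 116 and 129 to 145 TPM, with 2 called, both higher (Muc1 and Krt7), and values for the mesenchymal and alpha-cell markers are given above. Beta-cell markers summed to 373583 to 405630 TPM in controls and 392774 to 406614 in knockouts, with 1 of 10 called (Nkx6-1, lower). Endothelial (8 genes) and delta-cell markers (5 genes) had 0 called, and immune markers 1 of 6 tested (Cd68, higher). No marker of these lists was at 0 in all libraries. In all, 14 of 70 markers were called in DESeq2, beside 2.19% of all genes, and 3 in edgeR (Col1a1, Col1a2 and Pdgfra), beside 0.115%. The lists were chosen with earlier results of these data known, so these shares are not independent evidence of a difference. Hepatocyte genes, named after their values were seen, were high in 1 library above all: Alb held 103, 213 and 157 normalized counts in the controls and 51331, 1743 and 122 in the knockouts, and Apoa1 21.8, 17.3 and 44.6 against 5967, 332 and 7.98. Without knockout replicate 1, where these were highest, the log2 fold change of Kcnip3 was 0.81. Knockout replicate 2, which stays in that fit, also held more Alb and Apoa1 than any control. The part of the other cell types in the rise of Kcnip3 was not tested.

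The promoter windows of Kcnip3 are shown because it was the called gene, and the window of Kcnk16 because it was the most abundant gene with an entry in the same table. Each runs from 250 bases before to 50 bases after an annotated RefSeq start (GRCm38.p6) on the minus strand, and Kcnip3 has 3 such starts, whose transcripts the gene count adds together. KLF proteins are known to bind CACCC boxes. Capitals mark CACCC and its reverse complement GGGTG.
Kcnip3, chr2:127522045-127522344: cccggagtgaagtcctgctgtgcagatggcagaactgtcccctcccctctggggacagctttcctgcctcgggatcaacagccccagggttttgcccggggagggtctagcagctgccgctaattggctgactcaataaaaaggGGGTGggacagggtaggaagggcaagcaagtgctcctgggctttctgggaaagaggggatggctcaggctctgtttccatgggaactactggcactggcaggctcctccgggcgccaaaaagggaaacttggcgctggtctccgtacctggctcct
Kcnip3, chr2:127521343-127521642: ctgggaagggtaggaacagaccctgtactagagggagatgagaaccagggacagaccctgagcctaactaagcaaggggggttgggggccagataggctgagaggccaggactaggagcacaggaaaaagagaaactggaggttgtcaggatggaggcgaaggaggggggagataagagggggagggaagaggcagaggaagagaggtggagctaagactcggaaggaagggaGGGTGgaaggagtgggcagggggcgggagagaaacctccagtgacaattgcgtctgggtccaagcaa
Kcnip3, chr2:127482450-127482749: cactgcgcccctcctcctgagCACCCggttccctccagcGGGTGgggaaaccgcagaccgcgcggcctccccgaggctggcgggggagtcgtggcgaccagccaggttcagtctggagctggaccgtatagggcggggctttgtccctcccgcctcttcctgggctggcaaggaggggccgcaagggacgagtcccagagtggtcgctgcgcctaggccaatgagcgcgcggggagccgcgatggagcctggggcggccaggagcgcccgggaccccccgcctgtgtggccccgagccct
Kcnk16, chr14:20269220-20269519: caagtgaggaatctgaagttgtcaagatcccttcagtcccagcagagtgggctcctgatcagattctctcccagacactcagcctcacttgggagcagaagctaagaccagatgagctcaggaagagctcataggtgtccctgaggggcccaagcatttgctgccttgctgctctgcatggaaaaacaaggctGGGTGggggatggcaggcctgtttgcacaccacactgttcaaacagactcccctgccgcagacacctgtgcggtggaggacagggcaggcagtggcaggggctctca

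The first of these Kcnip3 windows held 1 match, the next 1 and the last 2, and the Kcnk16 window held 1. Both strands were searched, and a CACCC and a GGGTG match cannot overlap each other. At least 1 match was present in 57.5% of all 32851 windows and in 78.5% of the 93 windows of the 68 potassium channel genes with an entry. A gene that rose and a gene that did not pass thus both carry the letters, which are common, and a match shows neither binding nor its absence.

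Kcnip3 belongs to a set of 4 genes for KChIP subunits, which bring Kv4 pores to the membrane and slow their inactivation, and the others did not pass with all 6 libraries. Kcnip1 had 5192, 4620 and 6613 normalized counts in the controls and 6670, 6176 and 5732 in the knockouts (log2 fold change 0.18 ± 0.13). Its change was 0.07 without control replicate 2, and 0.34 without control replicate 3, where it passed in DESeq2 (adjusted p = 0.00778). Kcnip2 had 332, 340 and 446 in the controls and 482, 618 and 361 in the knockouts (0.39 ± 0.22). Kcnip4 lay the other way, with 1069, 1154 and 1118 in the controls and 746, 1035 and 883 in the knockouts, groups that did not overlap (-0.33 ± 0.14, DESeq2 adjusted p = 0.25). Kcnip4 shares exon bases with 5730480H06Rik on the opposite strand, which held 900.5 normalized counts on average beside its own 1001, so its count is uncertain.

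Of the Kv4 pores themselves, Kcnd1 was the main one at 6.06 TPM, and it is the only member on the X chromosome. It had 1453, 1391 and 1263 normalized counts in the controls and 1458, 1411 and 1348 in the knockouts, a log2 fold change of 0.04 ± 0.10. Kcnd3, at 0.57 TPM, had the most negative change of the 69 genes. It stood at 234, 336 and 312 normalized counts in the controls and at 117, 210 and 212 in the knockouts, with each knockout below each control, but the log2 fold change of -0.71 ± 0.26 did not pass (DESeq2 adjusted p = 0.159, with 0.0964 under the replicate block and 0.125 to 0.676 over 13 other alternatives). Kcnd2 stood at 0.64 TPM with overlapping groups (-0.29 ± 0.29).

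The BK auxiliary subunits were led by Kcnmb2, the fourth most abundant potassium channel gene, whose 6 libraries lay close together. It had 10355, 10303 and 10423 normalized counts in the controls and 10150, 10428 and 9819 in the knockouts, a log2 fold change of -0.03 ± 0.06 with an interval from -10.3% to 6.58%. Kcnmb1, the smooth muscle subunit, had 231, 228 and 182 in the controls and 281, 186 and 397 in the knockouts (0.43 ± 0.27, DESeq2 adjusted p = 0.598). The change was 0.13 without knockout replicate 3 and 0.67 without knockout replicate 2. Kcnmb4, the neuronal subunit, had 117, 97.9 and 119 in the controls and 80.3, 88.7 and 82.8 in the knockouts; the groups did not overlap, and the change of -0.41 ± 0.27 did not pass (adjusted p = 0.634).

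**Figure D5:**
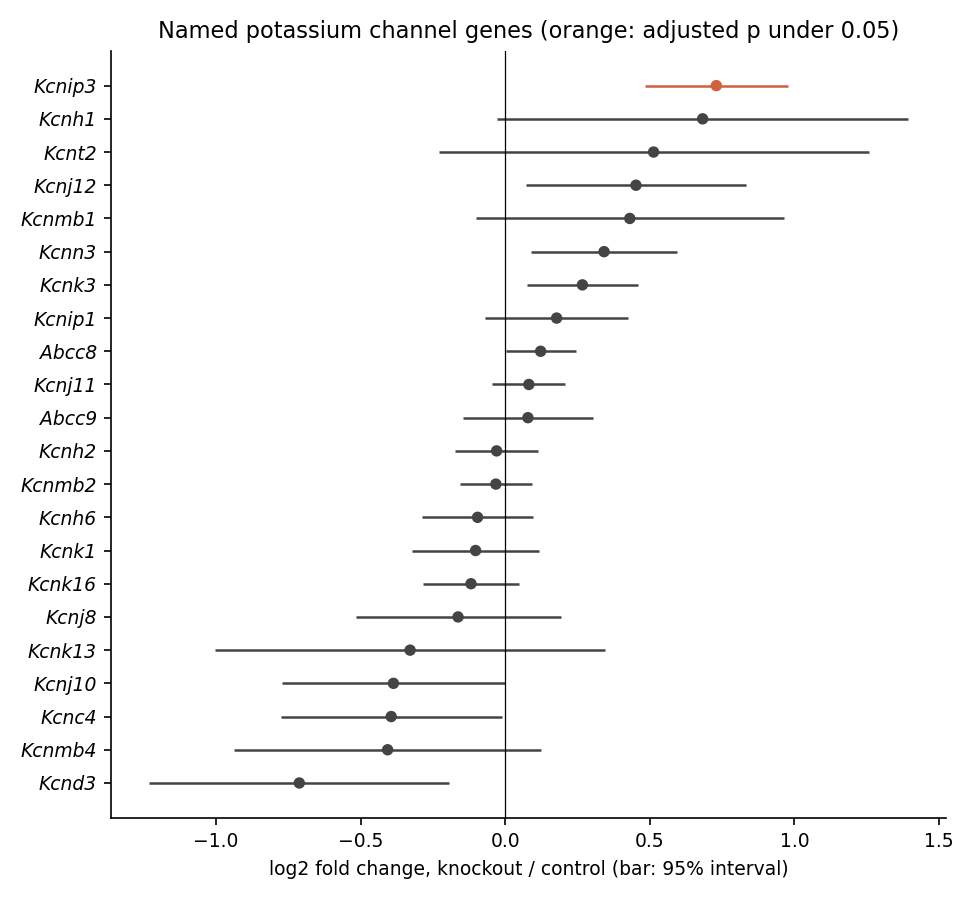
Log2 fold change of knockout against control (horizontal axis) with 95% intervals (bars) for potassium channel genes named by rule. The intervals, not corrected for the number of genes, lie above 0 for Kcnip3 (orange), Kcnj12, Kcnn3, Kcnk3 and Abcc8 and below 0 for Kcnd3, Kcnc4 and, barely, Kcnj10. Those of the abundant genes Abcc8, Kcnmb2 and Kcnj11 are the narrowest, and those of Kcnh1, Kcnt2 and Kcnk13 are wide.

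The pores of the Kv1 family, which Kcna genes encode, were a middle group in level, and none changed past the threshold. Kcna5 led them at 9.86 TPM, with 1092, 1492 and 1163 normalized counts in the controls and 1073, 1506 and 1046 in the knockouts. Kcna2, Kcna1 and Kcna6 followed at 4.92, 4.64 and 4.17 TPM, with log2 fold changes of -0.05 ± 0.10, 0.15 ± 0.15 and -0.03 ± 0.16. Kcna3 and Kcna4 stood at 0.73 and 0.50 TPM, and Kcna7 and Kcna10 had no counts. The auxiliary beta subunits of this family, which attach to the inside of the pore, were led by Kcnab3 at 11.03 TPM (log2 fold change 0.22 ± 0.15), ahead of Kcnab2 at 3.45 and Kcnab1 at 1.07 TPM.

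The level of some members is uncertain because another gene shares their exon bases on the opposite strand and held more counts. The antisense transcript Kcnq1ot1, known for imprinting of its locus, held 3712 normalized counts on average beside 609 for Kcnq1, and shares 121 of the 4093 exon bases of Kcnq1. Gca held 1916 beside 101 for Kcnh7, with 696 of 15226 bases shared. Gigyf2 held 9676 beside 34.3 for Kcnj13, with 623 of 1270 bases shared. How many of the counts of these 3 genes came from the partner was not tested.

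The 25 genes with a mean under 50 normalized counts include the 8 with no counts at all, which were Kcna7, Kcna10, Kcne1, Kcne2, Kcnj1, Kcnk18, Kcnmb3 and Kcns2. A count of 0 allows up to 3 counts, or 0.0272 to 0.0296 in CPM, the count per library total, in each library. Kcnk7, Kcns1 and Kcnv1 had fewer than 10 counts in total. Kcnj5, a G protein-gated pore at 0.094 TPM, had 35.7, 23.0 and 21.2 normalized counts in the controls and 9.44, 12.4 and 11.97 in the knockouts, and DESeq2 gave it no adjusted p. Kcnj14, with 9.92, 4.80 and 8.49 in the controls and 23.6, 10.3 and 11.97 in the knockouts, had none either. In edgeR they had adjusted p-values of 0.452 and 0.697.

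Several of the genes lie next to each other. Kcnk16 at 415.5 TPM lies 79566 bases from Kcnk5, another 2-pore gene, at 1.41 TPM, so that neighbours differed widely in level. On chromosome 6, Kcna1 and Kcna6 lie 61944 bases apart at 4.64 and 4.17 TPM, and on chromosome 16 Kcne1 and Kcne2, with 47852 bases between them, both had no counts. Kcnmb1 lies within the span of Kcnip1 on the opposite strand, at 1.39 beside 21.7 TPM.

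Control replicate 3 stood apart for many of these genes. It lay by a factor of 1.25 or more above or below both other controls for 16 of the 69 genes, 7 above and 9 below, while each of the other 5 libraries lay as far from its group for 6 to 10. Over all 15811 genes the share was 14.98% for control replicate 3 and 6.39% to 7.63% for the others. Without that library 8 of 66 potassium channel genes passed in DESeq2, beside a background of 6.28%. Of these 6 were higher, Kcnip3, Kcnh1, Kcnf1 (log2 fold change 0.88), Kcnj12 and Kcnip1 (0.34) among them, against a background of 3.8%, and 2 lower, Kcnh6 (-0.19) among them, against 2.48%. Without control replicate 1 there were 2 calls, Kcnip3 among them (background 2.49%). Without control replicate 2 Kcng3, a silent subunit, joined Kcnip3 (-0.51, adjusted p = 0.0241, background 1.56%), and without knockout replicate 2 Kcnip4 did (-0.45, adjusted p = 0.0349, background 2.25%). Without knockout replicate 1 or 3 Kcnip3 was the single call, against backgrounds of 0.88% and 1.49%, as it was with all counts halved (1.82%). With the replicate block Kcnip3 and Kcnh1 passed, against 2.47%. What sets control replicate 3 apart was not tested.

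Genes that work beside the potassium channels were counted from lists. Of 24 genes for channel partners, sodium-potassium pumps and chloride-coupled potassium transporters, 21 had an adjusted p. Of these 1 was called, lower, against backgrounds of 2.19% in either direction and 0.657% for lower genes. This was Fxyd6, a small regulator of the sodium-potassium pump, with 20125 ± 858 normalized counts (SD, n = 3) in controls and 16751 ± 1017 (SD, n = 3) in knockouts. Its log2 fold change was -0.26 ± 0.08 (DESeq2 adjusted p = 0.0256). It did not pass in edgeR (adjusted p = 0.283). The median of the list was 0.01. Of 27 genes for glucose uptake, calcium, sodium, HCN and TRP channels, 0 of 27 were called (background 2.19%), with a median log2 fold change of 0.0016. Slc2a2, the glucose transporter, had -0.24 and Cacna1d, a calcium channel pore, 0.07, picked for their roles in beta cells.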

How the data were processed

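The deposited table holds counts of reads per gene for 6 libraries, without normalization by the authors; 0 columns were unused. The submitters' processing notes name FastQC, STAR, featureCounts, DESeq2 and mm10, the file name names cutadapt, and strand setting and versions are not given in the sources used here. All 55536 gene IDs match GENCODE M21 (GRCm38), the source of coordinates and exon lengths. Exons of 27 members overlap a gene on the opposite strand, by as little as 1 base, so their counts may be uncertain. Of genes with 1 to 12 counts, 85.6% to 88.1% had an even count, as when both mates of a pair are counted; counting intervals and floors would then be too narrow. A floor of 3 counts is 0.0272 to 0.0296 CPM per library and covers counting error only. The variance between within-group pairs was 40.0 to 120 times that of sampling noise (chi-square per degree of freedom), so none agreed within it. Counting both mates would raise this ratio. The labels list all 6 as separate samples.

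Since the submitters state that they used DESeq2 with no batch term, DESeq2 1.42.0 (R 4.3.3) was the main test, with these settings chosen here: genotype only, Wald test, genes with at least 10 counts in total, Benjamini-Hochberg adjusted p over all genes, threshold 0.05. Intervals are 95%, from the SE. Alternatives were edgeR 4.0.16 with TMM, TMM factors, other filters, a threshold of 0.1, the replicate block, each library left out and, added after the data were seen, halved counts. Fits were also run on simulated data, where the planted changes were larger than that of Kcnip3 and no library stood apart. That run does not bear on the calls given here. The labels name no pairing behind the replicate numbers, and the same-numbered libraries did not deviate together (correlations -0.06 to 0.01 over 15811 genes). Members and lists were chosen with earlier results of these data known. Genes named by rule were the K-ATP subunits, the 12 highest by TPM, those called, and the 5 most positive and 5 most negative changes at a mean of at least 50; the report lists the others. Some genes are not reported here and are left out of the figures that name genes.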

Additional observations from a re-analysis of the deposited data

How the results depend on the processing

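The count of called potassium channel genes, 1 in DESeq2, was 0 in edgeR, 3 at an adjusted p of 0.1, 2 with the replicate block (Kcnip3 and Kcnh1), and 1 to 8 when each library was left out. Over all genes 389 became 29 in edgeR, 614 at 0.1, 405 with the replicate block and 153 to 952 when each library was left out; leaving out knockout replicate 1 gave the fewest, control replicate 3 the most. Halved counts gave 323 and 1. Of 349 results of single genes under the alternatives, leaving out 1 with no adjusted p (Kcnt2 without control replicate 3), 337 kept direction and side of the threshold, 1 was weaker (Kcnip3 in edgeR), 7 stronger and 4 reversed. The reversed ones, none past the threshold, lay within leave-one-out ranges of -0.0013 to 0.16 for Abcc9, -0.060 to 0.022 for Kcnh2, -0.18 to 0.028 for Kcnk1 and -0.57 to 0.094 for Kcnk13. With the longest transcript as the length, summed levels moved to 424 TPM from 485 for 2-pore genes, 579.8 from 443 for regulatory subunits, 129.8 from 136 for auxiliary subunits, 129.9 from 139.5 for inward rectifiers and 216 from 249.5 for voltage-gated pores. Apart from the change of length, the cause was not tested. Depth limits most the 25 genes under 50 normalized counts.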
